A study of Mus musculus with 12 samples.

Results

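The nuclear genes of oxidative phosphorylation were followed from mouse embryonic stem cells (ESCs) to epiblast-like cells (EpiLCs). Members were all protein-coding genes of the deposited count table whose symbol begins with Ndufa, Ndufb, Ndufc, Ndufs, Ndufv, Sdha, Sdhb, Sdhc, Sdhd, Uqcr, Cox4, Cox5, Cox6, Cox7, Cox8 or Atp5. The rule found 97 members among 51467 genes, and 91 of them were among the 14731 genes that reached 3 CPM (reads scaled to the library total) in 3 or more libraries. No measured value entered the rule. ESCs of a mouse line with miR-290 mCherry and miR-302 GFP reporters were grown in serum medium with LIF and 2i (a pair of kinase inhibitors), and EpiLCs were the same cells collected about 56 h into culture without LIF and 2i. All cells, ESCs and EpiLCs alike, received 500 uM 4-thiouridine (4sU) for 30 min. Part of each RNA was biotinylated and captured on streptavidin beads (4sU RNA, a measure of nascent transcripts), and part was depleted of ribosomal RNA (total RNA). The 4 groups, ESC total, EpiLC total, ESC 4sU and EpiLC 4sU, held 3 libraries each.

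Oxidative phosphorylation is the work of 5 protein complexes of the inner mitochondrial membrane. Complexes I (NADH dehydrogenase) and II (succinate dehydrogenase) pass electrons to ubiquinone, complex III (cytochrome bc1) passes them on to cytochrome c, and complex IV (cytochrome c oxidase) to oxygen, while complex V (ATP synthase) uses the resulting proton gradient to make ATP. Most subunits are encoded in the nucleus and a few in the mitochondrial genome, and complex IV has subunits with tissue-specific isoforms from paralogous genes. Naive ESCs are known to respire, whereas primed pluripotent cells rely more on glycolysis.

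The total libraries held 9300845 to 21975684 counted reads and the 4sU libraries 3097693 to 5385644. None of the 92 spike-in sequences had a read, so every value is relative to the other genes of the same library, and fewer transcripts per cell cannot be told apart from a larger pool of other transcripts. The labelled states carried their markers: 8 of 8 naive markers were called lower and 6 of 6 primed markers called higher in EpiLCs. Some markers of other cells also moved. Of 8 fibroblast markers, 4 passed the filter and 2 were called higher in EpiLC total RNA (Dcn 7.21 and Col1a2 4.57, log2 change), and their summed level was 9.55 to 11.8 CPM in ESC total and 25.9 to 29.5 CPM in EpiLC total libraries, with Dcn and Postn at 0 reads in all ESC total libraries. Of 6 primitive endoderm markers, 3 passed the filter (Dab2 4.87, Gata4 1.24, Sox17 -4.13), with a summed level of 3.38 to 9.58 CPM in ESC total and 16.9 to 18.5 CPM in EpiLC total libraries. Of 4 mesendoderm markers, 3 passed and 2 were called higher (Mixl1 2.51, T 2.35), while Eomes (-0.23) did not pass the test. Gsc did not pass the filter, at a mean of 4.12 CPM in ESC total and 0.996 CPM in EpiLC total libraries. The sums of the 4 markers were 17.2 to 28.2 and 20.3 to 31.1 CPM. The part of these markers of other cells in the results was not tested. ESC total replicate 3 stood apart: the median member was at a log2 CPM of 6.23 there, against 6.5 and 6.54 in the other ESC total libraries. ESC 4sU replicate 3 (4.89) lay between the other ESC 4sU libraries (4.86 and 4.90). The main counts and medians are also given without both ESC libraries numbered 3.

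Respiratory genes are known targets of the nuclear factors NRF1, YY1, the ETS protein GABP and estrogen-related receptors (ERR), so their promoters were read for these motifs. RefSeq promoters (GRCm38.p6, 250 bases before to 50 after the start) were at hand for 80 of the 97 members. The NRF1 motif (the capitals in the first set of windows below), read like the others on both strands, lay in the promoters of 7 members (8.75%), against 1.47% of the 17491 protein-coding genes with a promoter in the table. The YY1 motif AAGATGGCG lay in 8 (10% against 2.14%), the ETS motif CCGGAAG in 21 (26.2% against 12.9%), the ERR motif TCAAGGTCA in 2 (2.5% against 0.377%) and the CRE motif TGACGTCA in 4 (5% against 2.54%). None of these motifs contains another. These are matches of letters and not measured sites. The 7 windows of 30 bases with the NRF1 motif (in capitals) are shown because they hold members from both ends of the expression changes; the distance is that of the motif's first base from the transcript start.
Ndufaf5 (chr2:140170652-140170681, + strand, 16): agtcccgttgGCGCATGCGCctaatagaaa
Uqcrc1 (chr9:108936668-108936697, + strand, 30): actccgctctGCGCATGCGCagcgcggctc
Cox6a1 (chr5:115349101-115349130, - strand, -162): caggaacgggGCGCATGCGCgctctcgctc
Atp5g2 (chr15:102671070-102671099, - strand, -42): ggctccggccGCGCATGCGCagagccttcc
Ndufa11 (chr17:56717692-56717721, + strand, -60): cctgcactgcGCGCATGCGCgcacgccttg
Atp5k (chr5:108434430-108434459, - strand, -50): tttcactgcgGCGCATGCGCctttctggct
Ndufaf4 (chr4:24897960-24897989, + strand, -113): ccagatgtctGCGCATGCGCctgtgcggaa

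The windows are ordered by the change of the gene's mRNA from ESC to EpiLC, which ran from -1.29 for Ndufaf5 and -1.01 for Uqcrc1 to 0.22 for Ndufaf4. The median mRNA change was -0.69 over the 7 members with the motif and -0.42 over the 71 members that passed the filter and had a promoter entry without it, and the difference was not tested. With the YY1 motif the median was -0.46 over 8 members, against -0.44 over the 70 with a promoter entry and without it. With the ETS motif it was -0.42 over 21, against -0.46 over the 57 without it. These differences were not tested either. Both ERR windows are shown because the receptor gene Esrrb had a log2 change of -5.95 in the same cells. They belonged to Sdhd (-0.21, limma-voom adjusted p = 0.0774) and Atp5g3 (-0.14, limma-voom adjusted p = 0.255). The part of Esrrb in the members' changes was not tested. The capitals mark the ERR motif as read on the opposite strand.
Sdhd (chr9:50603800-50603829, - strand, 36): tttccgggttgtagagTGACCTTGAgccct
Atp5g3 (chr2:73911359-73911388, - strand, -52): tgttacaaagTGACCTTGAgcgtcttcccc

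To learn how mRNA of these genes changed during the transition, EpiLC total RNA was compared with ESC total RNA. The members fell as a group by a modest amount. Their share of all counted reads was 1.43% ± 0.0667 (SD, n = 3) in ESC total and 1.07% ± 0.0116 in EpiLC total libraries, and the groups did not overlap (1.35% to 1.47% against 1.06% to 1.08%). The median log2 change over the 91 members was -0.50, a level 29.1% lower, with quartiles of -0.69 and -0.24, against a median of 0.02 over all genes tested. The log2 change was below 0 for 85 members, where 48.9% of all genes were below 0. At an adjusted p (limma-voom, Benjamini-Hochberg over all genes) under 0.05, 69 members fell and 0 rose, against 32.1% of all genes that fell and 31.4% that rose. At an unadjusted p under 0.05, 0 rose in limma-voom, and edgeR and DESeq2 also passed 0 in that direction after adjustment. Every EpiLC library was below every ESC library for 67 members (35.1% of all genes) and above for 2 (33.5%). A change of more than a log2 of 1 in addition to the adjusted p, the rule for a call here, was met by 7 members that fell and 0 that rose, against 11.2% and 16.3% of all genes. The members are short transcripts, with a median exonic length of 1001 bases against 3349 for protein-coding genes that passed the filter. Among the 2708 protein-coding genes under 2000 bases the median mRNA change was -0.21, and over the 75 members under that length it was -0.51; the part of length in the fall was not tested. Without both ESC libraries numbered 3, 81 members fell (36.7% of all genes), 0 rose and 9 were called lower (10.3%), with a median of -0.53.

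**Figure D1:**
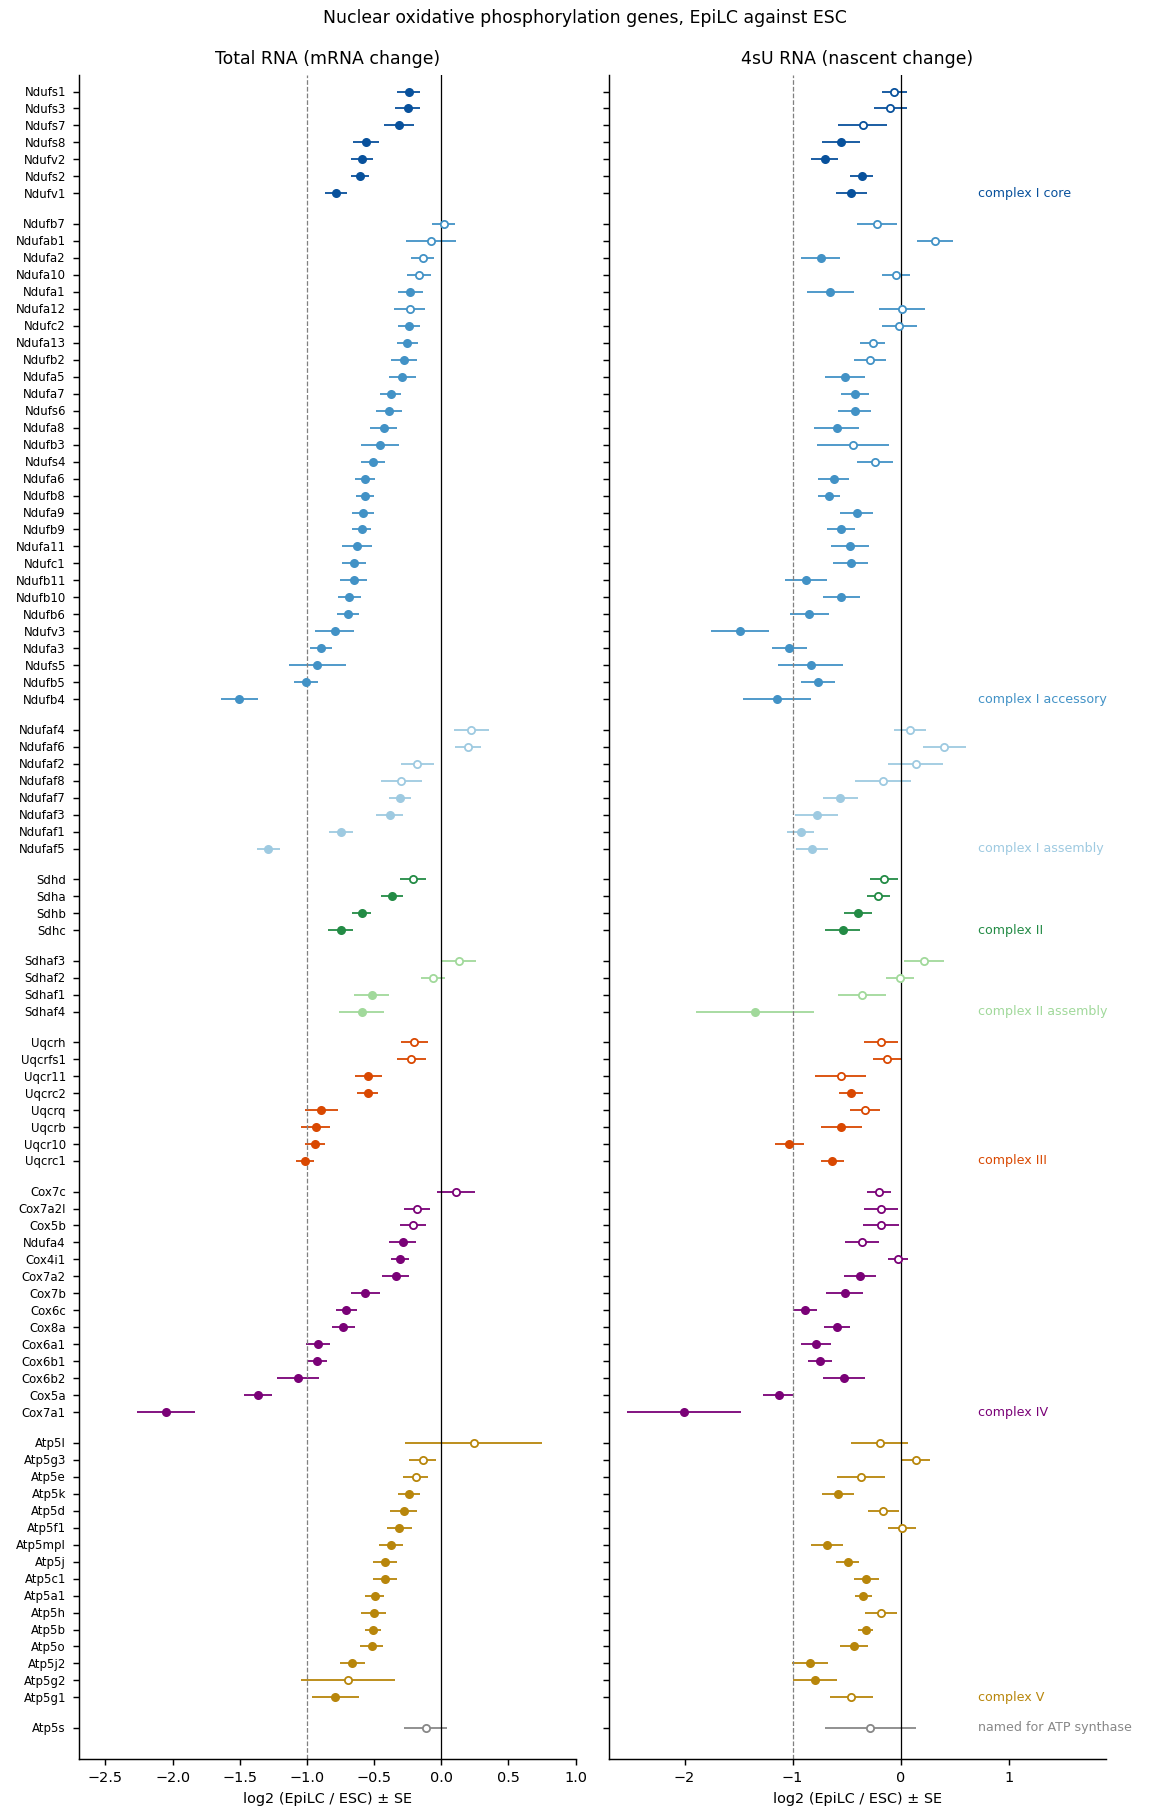
Log2 change from ESC to EpiLC (x axis, ± SE, 3 libraries per group) of the 91 members that passed the filter, in total RNA (left) and 4sU RNA (right), grouped by complex. Filled points have an adjusted p under 0.05 and the dashed line marks a log2 change of -1: 69 points on the left and 53 on the right are filled, all below 0.

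By complex, the median mRNA change was -0.72 for complex III, -0.64 for complex IV, -0.56 for the core subunits of complex I, -0.51 for its accessory subunits, -0.48 for complex II and -0.42 for complex V. It was -0.30 over the 12 assembly factors of complexes I and II. The 78 subunits of the complexes themselves had a median of -0.51, and 63 of them fell. These medians rest on 4 to 29 genes each and their differences were not tested.

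**Figure D2:**
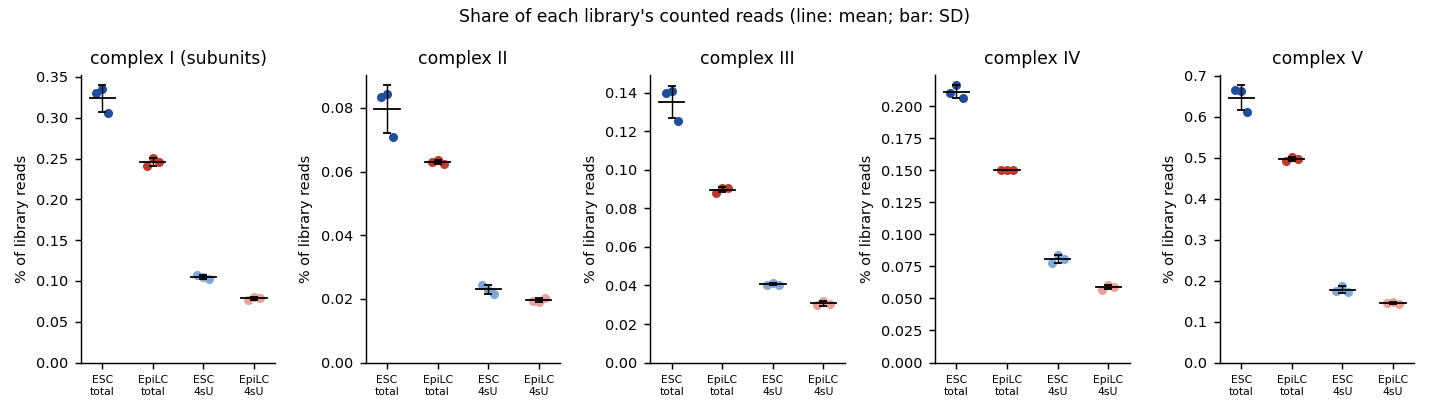
Share of each library's counted reads (y axis, %) taken by the nuclear subunits of each complex in the 4 groups (points: libraries; line: mean; bar: SD, n = 3). In total RNA the EpiLC libraries lay below all ESC libraries for each complex, for example 0.491% to 0.501% against 0.613% to 0.665% for complex V.

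Complex I accepts electrons from NADH. All 7 core subunits, which carry its flavin and iron-sulfur centres, fell, from -0.24 for Ndufs1 (the large iron-sulfur subunit) to -0.78 for Ndufv1 (the NADH-binding flavoprotein). Ndufs1 was at 279, 288 and 242 CPM in ESC total and at 218, 232 and 234 CPM in EpiLC total libraries, so that its groups were close but did not overlap. Of 29 accessory subunits, 24 fell, and 2 of them were called. Ndufb4 (chromosome 16, 37647170 to 37654453 in mm10), a membrane-arm subunit, was at 34.5, 35.4 and 28.9 CPM in ESC total and 11, 11.4 and 12.5 CPM in EpiLC total libraries. Its EpiLC libraries were all less than the lowest ESC library by a wide margin (log2 change -1.50 ± 0.14 SE, limma-voom adjusted p = 2.22e-07). Of its 50-base stretches, 37% also occur in other genes, so part of its reads could not be placed. Ndufb5 (chromosome 3, 32736990 to 32751566), also of the membrane arm, was at 163, 163 and 133 CPM against 72.1, 77.4 and 78.5 CPM (-1.01 ± 0.09, limma-voom adjusted p = 1.92e-07), and it lay at the fold threshold, which it missed in 6 of 12 leave-one-out fits (up to -0.96). Its ESC and EpiLC libraries did not overlap. At the other end, Ndufb7 was at 90.0, 88.9 and 101 CPM in ESC total and 90.3, 97.5 and 94.8 CPM in EpiLC total libraries, groups that overlapped (0.02 ± 0.09).

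The Ndufaf proteins help to build complex I without staying in it. Of these 8 assembly factors, 4 fell, and the other 4 did not pass the test; their difference from the subunits was not tested. Ndufaf5 (chromosome 2, 140170649 to 140203689), which modifies the Ndufs7 subunit, was called: its ESC total libraries were at 34.1, 34.0 and 34.2 CPM and its EpiLC total libraries at 14.6, 13.8 and 13.5 CPM; the groups lay far apart (-1.29 ± 0.09, limma-voom adjusted p = 1.11e-08). Ndufaf4 and Ndufaf6 had values above 0. Ndufaf6 was at 33.3, 30.9 and 29.9 CPM in ESC total and 40.5, 34.0 and 34.5 CPM in EpiLC total libraries (0.20 ± 0.10, limma-voom adjusted p = 0.0809). These were the 2 members with every EpiLC library above every ESC library. With library totals as the only scaling both passed the test (0.29 for Ndufaf6, 0.31 for Ndufaf4), and under the other scalings tried neither did.

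Complex II, the entry point of succinate, has 4 subunits, all nuclear. Sdha (the flavoprotein, -0.37 ± 0.08), Sdhb (the iron-sulfur subunit, -0.59 ± 0.07) and Sdhc (a membrane anchor, -0.75 ± 0.09) fell. Sdhd, the other anchor, had a log2 change of -0.21 ± 0.10 and did not pass. Sdhc was at 162, 154 and 124 CPM in ESC total and at 87.0, 86.0 and 88.3 CPM in EpiLC total libraries. Of the 4 Sdhaf assembly factors, Sdhaf1 (-0.52) and Sdhaf4 (-0.59) fell, while Sdhaf2 (-0.06) and Sdhaf3 (0.13) did not pass the test.

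Complex III had the lowest median. Of its 8 members, 6 fell, and Uqcrfs1, the Rieske iron-sulfur protein (-0.22), and Uqcrh, the hinge protein (-0.20), did not pass. Uqcrc1 (chromosome 9, 108936633 to 108949623), a core protein, was at 541, 517 and 467 CPM in ESC total and 240, 257 and 259 CPM in EpiLC total libraries, 50.5% lower (-1.01 ± 0.07, limma-voom adjusted p = 1.41e-08). It missed the fold threshold without ESC total replicate 1 or without EpiLC total replicate 1 (-0.98 each). Uqcr10 (-0.94), Uqcrb (-0.93) and Uqcrq (-0.89), all small subunits, fell too, short of the fold threshold.

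Complex IV held the member with the largest fall and the widest spread. Cox7a1 (chromosome 7, 30184144 to 30186078), the heart and muscle isoform of subunit 7a, was at 11.1, 12.1 and 12.2 CPM in ESC total and 4.60, 2.10 and 2.40 CPM in EpiLC total libraries (-2.05 ± 0.21, limma-voom adjusted p = 1.02e-06). It passed the expression filter through the ESC libraries, 4 of which reached 3 CPM against 1 of the EpiLC libraries, and the same holds for Ndufs5 (6 against 1). Cox5a (chromosome 9, 57521279 to 57532426), a subunit present in every cytochrome c oxidase, was much more abundant and 61.1% lower in EpiLCs. It was at 267, 278 and 329 CPM in ESC total and 117, 113 and 108 CPM in EpiLC total libraries (-1.36 ± 0.10, limma-voom adjusted p = 3.95e-08), and its EpiLC libraries were all well below the ESC libraries. Cox6b2 (chromosome 7, 4751792 to 4753094), the testis isoform of subunit 6b, was at 28.5, 27.8 and 18.9 CPM against 12, 12 and 12.1 CPM (-1.06 ± 0.16, limma-voom adjusted p = 3.13e-05). It missed the fold threshold without ESC total replicate 1 (-0.97) or replicate 2 (-0.98).

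Complex V, the ATP synthase, had 12 of 16 members that fell and 0 called. Its catalytic subunits were the most abundant members. Atp5b, the beta subunit, was at 3270, 3185 and 3082 CPM in ESC total and 2190, 2255 and 2259 CPM in EpiLC total libraries, 29.7% lower (-0.51 ± 0.06, limma-voom adjusted p = 4.76e-06). Atp5a1, the alpha subunit, was at 2335, 2301 and 2006 CPM against 1554, 1572 and 1583 CPM (-0.50 ± 0.07, limma-voom adjusted p = 1.71e-05). Together these genes took 0.486% of ESC total and 0.364% of EpiLC total reads, and without them the members' median change was -0.46. Atp5s, a factor named for ATP synthase that is not one of its structural subunits, did not pass (-0.12 ± 0.16).

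**Figure D3:**
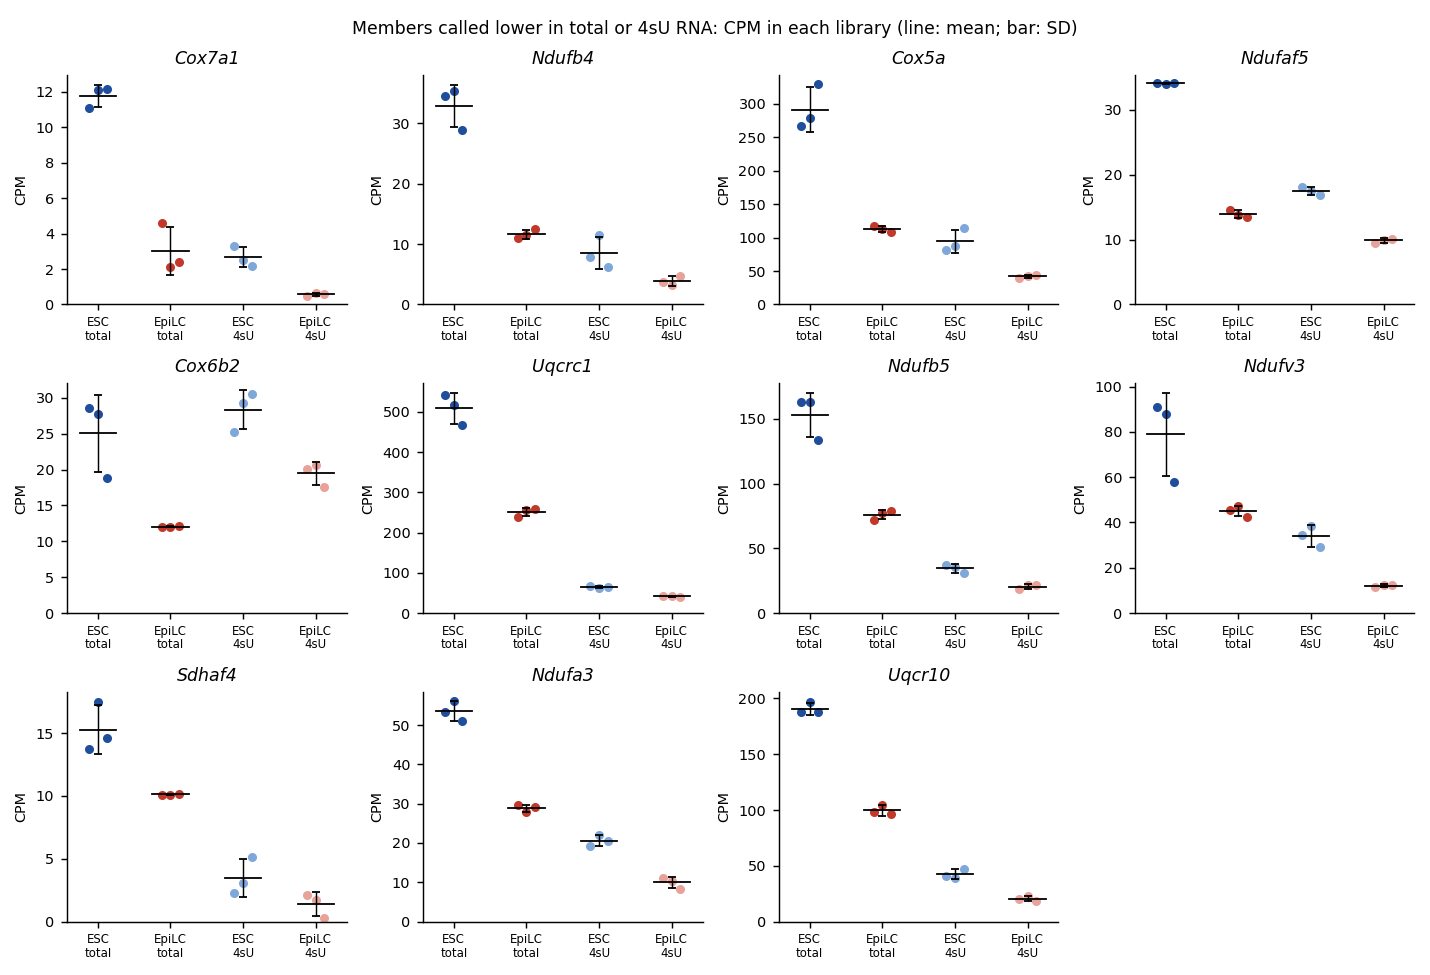
CPM (y axis, from 0) in each of the 12 libraries for the 11 members called lower in total or 4sU RNA (points: libraries; line: mean; bar: SD, n = 3). In each panel the ESC total points lie above the EpiLC total points; for Cox7a1 they are at 11.1 to 12.2 against 2.10 to 4.60 CPM.

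Levels can be set beside each other only per length. On the scale of CPM per kilobase of exon (RPKM) in ESC total RNA the median member was at 82.9, against 10.2 for protein-coding genes that passed the filter, and in EpiLC total RNA at 61.1 against 9.74. The highest members in ESC were Atp5b (1659 RPKM), Atp5a1 (762), Cox4i1 (723), Cox5a (452) and Uqcr10 (440). In EpiLC total RNA Atp5b (1166), Cox4i1 (583) and Atp5a1 (541) stayed at the top, while Cox5a was at 175 and Uqcr10 at 230. Cox4i1, whose protein is the largest nuclear subunit of complex IV, had a log2 change of -0.31 ± 0.07. These levels are too low where copies share sequence or where the counted exons are much longer than the main transcript.

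The paralog sets of complex IV and V were uneven. Of Cox4i1 and Cox4i2, the normoxic and the hypoxia-responsive isoform, Cox4i2 had 19 to 26 reads in ESC total and 5 to 7 in EpiLC total libraries and did not pass the filter. Cox7a2, the ubiquitous isoform of subunit 7a (-0.34 ± 0.10), and Cox7a2l, a supercomplex factor (-0.18 ± 0.10), had values nearer 0 than Cox7a1; the difference itself was not tested. Cox7a2 was at 293 RPKM in ESC total RNA and Cox7a1 at 22.0. Cox6b1 (-0.92 ± 0.07), the ubiquitous form, fell like Cox6b2 and was at 388 RPKM against 33.8. Cox5b, the partner of Cox5a in the enzyme, did not pass (-0.21 ± 0.10, 89.9, 94.1 and 73.2 CPM against 69.3, 75.9 and 77.0 CPM, overlapping groups); its difference from Cox5a was not tested. Cox6a1 fell (-0.92), and its muscle isoform Cox6a2 had at most 4 reads in a library. Cox8a fell (-0.73), Cox8b had at most 1 read and Cox8c at most 2. Cox7b fell (-0.57) and Cox7b2 had at most 9 reads. Cox6c fell (-0.71). Ndufa4, a complex IV subunit despite its name, fell (-0.29), while Ndufa4l2, its hypoxia-responsive paralog, had 21 to 98 reads in ESC total and 1 to 16 in EpiLC total libraries and was not tested. The genes Atp5g1, Atp5g2 and Atp5g3 encode the same mature c subunit of ATP synthase. Atp5g3 was at 242, 249 and 184 CPM against 202, 203 and 206 CPM, overlapping groups (-0.14 ± 0.10). Atp5g1 fell (-0.79 ± 0.17) from 13.5, 13.5 and 13.6 CPM to 6.5, 9.43 and 7.49 CPM, and Atp5g2, with few uniquely placed reads, did not pass (-0.69 ± 0.35).

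The question of the 4sU libraries was whether newly made RNA changed in the same way. It did so in direction for most members. The members' share of 4sU reads was 0.452% ± 0.0119 (SD, n = 3) in ESC and 0.355% ± 0.00433 in EpiLC libraries, with no overlap. The median nascent change was -0.44, 26.3% lower, against -0.09 over all genes, and 83 members were below 0, where 55.3% of all genes were. At an adjusted p under 0.05, 53 members fell and 0 rose, against 28.8% and 23.7% of all genes, and at an unadjusted p under 0.05 limma-voom had 58 lower and 0 higher. For 59 members every EpiLC library was below every ESC library (34.1% of all genes), and for 0 above (26.6%). Calls were made for 7 members that fell, against 13.5% of all genes, and for 0 that rose (11.9%). Without the expression filter 28 members fell (13.4% of all genes). Without both ESC libraries numbered 3, 60 fell (33.5%) and 5 were called (12.5%), with a median of -0.50. With edgeR or DESeq2, or without EpiLC 4sU replicate 3, 1 member, Ndufaf6, rose (0.41 to 0.54).

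Of the 7 members called lower in 4sU RNA, 3 were also called in total RNA. Cox7a1 was at 3.29, 2.52 and 2.18 CPM in ESC 4sU and 0.474, 0.639 and 0.596 CPM in EpiLC 4sU libraries, the latter resting on 2 to 3 reads each (-2.0 ± 0.53, limma-voom adjusted p = 0.00546). Cox5a was at 81.2, 87.6 and 114 CPM against 39.8, 42.8 and 44.4 CPM (-1.13 ± 0.14, limma-voom adjusted p = 1.56e-05). Ndufb4 was at 7.81, 11.5 and 6.27 CPM against 3.79, 3.2 and 4.77 CPM (-1.14 ± 0.31, limma-voom adjusted p = 0.00696). All of these EpiLC libraries lay below all ESC libraries, but Ndufb4 missed the fold threshold without ESC 4sU replicate 2 (-0.90) or EpiLC 4sU replicate 2 (-0.99). Ndufv3 (chromosome 17, 31520115 to 31531326), an accessory subunit of the NADH-binding part of complex I, fell furthest of the others. It was at 34.3, 38.7 and 29.2 CPM in ESC 4sU and 11.4, 12.6 and 12.5 CPM in EpiLC 4sU libraries (-1.49 ± 0.27, limma-voom adjusted p = 0.000346), and at 91.0, 88.0 and 57.7 CPM against 45.5, 47.2 and 42.6 CPM in total RNA (-0.79 ± 0.14).

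The other nascent calls were closer to the thresholds. Ndufa3 (chromosome 7, 3617373 to 3620327), a small complex I subunit, was at 19.3, 22.1 and 20.4 CPM against 11.1, 10.4 and 8.35 CPM (-1.03 ± 0.16, limma-voom adjusted p = 0.000104). Uqcr10 (chromosome 11, 4701973 to 4704342), a small subunit of complex III, was at 40.5, 39.2 and 47.4 CPM against 20.1, 22.6 and 18.2 CPM (-1.03 ± 0.13, limma-voom adjusted p = 1.49e-05). Both groups of libraries were well apart, and both genes fell short of a log2 change of -1 with median-of-ratios scaling (-0.98 and -0.97) and without EpiLC 4sU replicate 3 (-0.93 and -0.96). Ndufa3 did so also without ESC 4sU replicate 2 (-0.99) and Uqcr10 without ESC 4sU replicate 3 (-0.98). Sdhaf4 (chromosome 1, 23995939 to 24005656), an assembly factor of complex II, was at 2.26, 3.06 and 5.18 CPM against 2.13, 1.70 and 0.298 CPM, the last of these 1 read (-1.35 ± 0.54, limma-voom adjusted p = 0.0496). Its call was lost in 7 of 12 leave-one-out fits, with a value of -0.70 (adjusted p = 0.233) without EpiLC 4sU replicate 3.

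Set side by side, 51 members fell in both kinds of RNA, 18 in total RNA alone and 2, Atp5g2 and Ndufa2, in 4sU RNA alone. That is 73.9% of the 69 that fell in total RNA and 96.2% of the 53 that fell in 4sU RNA. Over all genes, 22.1% fell in both, which is 68.9% of those that fell in total RNA and 76.7% of those that fell in 4sU RNA. In neither did 20 members pass, among them Atp5g3, Cox5b, Cox7c, Uqcrfs1, Uqcrh, Sdhd and 4 Ndufaf factors. The Spearman correlation of mRNA and nascent change was 0.767 across the 91 members and 0.829 across all genes; genes are not independent replicates, and total and 4sU RNA were taken from the same labelled samples.

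**Figure D4:**
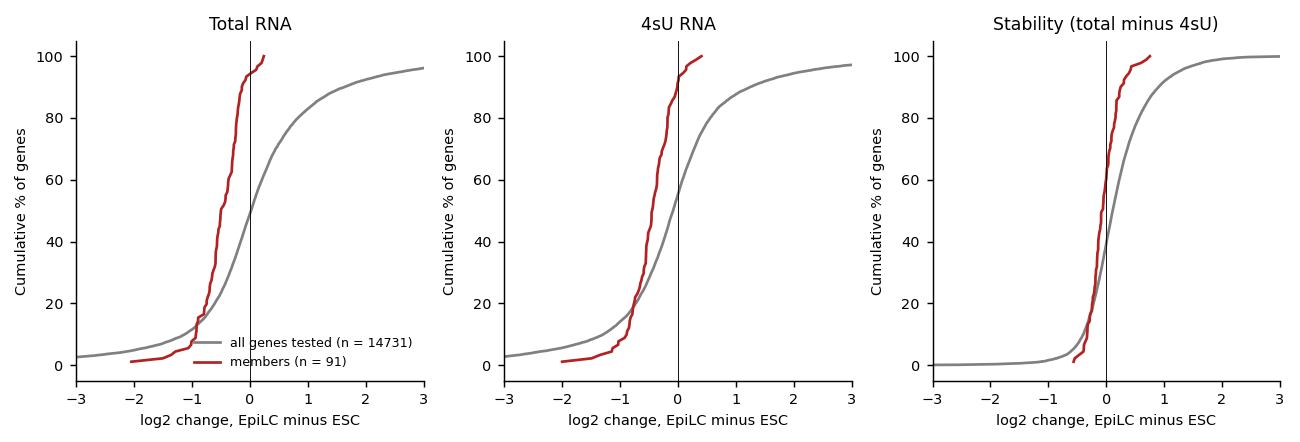
Cumulative percent of genes (y axis) by log2 change from ESC to EpiLC (x axis) in total RNA, 4sU RNA and the stability change, for the 91 members (red) and all 14731 genes tested (grey). The medians are -0.50 (red) against 0.02 (grey), -0.44 against -0.09 and -0.05 against 0.11. The curves cross in the lower tail. A change under -1 was reached by 7 of the 91 members and 1695 of the 14731 genes in total RNA, and by 7 and 2081 in 4sU RNA. With an adjusted p under 0.05 in addition, this was 7.69% of members against 11.2% of all genes in total RNA. In 4sU RNA it was 7.69% against 13.5%. A stability change under -0.5 was reached by 2.2% of members and 6.7% of all genes.

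The study's measure of mRNA stability is the log2 ratio of total to 4sU RNA, and its change from ESC to EpiLC is the interaction of cell type and RNA kind. No member passed the test (limma-voom, 0 at an adjusted p under 0.05, against 1.88% of all genes lower and 2.72% higher; 0 called, against 0.305% and 1.24%). At an unadjusted p under 0.05 there were 7 members, where 22.9% of all genes were. The median change was -0.05, against 0.11 over all genes, and relative to that median it was -0.17. Over the members the values ran from -0.56 to 0.75 with a median SE of 0.18. A change that misses the test is not shown to be absent. The smallest adjusted p-values were those of Uqcrq, Uqcrc1 and Ndufa2.

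Uqcrq, a small subunit of complex III, had total to 4sU ratios of -0.32, -0.25 and -0.82 in the 3 ESC pairs of same-numbered libraries and -1.14, -1.0 and -0.86 in the EpiLC pairs, a change of -0.56 ± 0.19 (limma-voom adjusted p = 0.0939). Uqcrc1 had ratios of 3.01, 3.07 and 2.86 against 2.49, 2.62 and 2.71 (-0.38 ± 0.13, limma-voom adjusted p = 0.0946). In both, every EpiLC pair lay below every ESC pair. Ndufa2, an accessory subunit of complex I, went the other way, with 2.01, 1.78 and 1.66 against 2.62, 2.51 and 2.07 (0.60 ± 0.20, limma-voom adjusted p = 0.0951). In Uqcrq and Uqcrc1 the ESC pair numbered 3 was the one nearest to the EpiLC pairs, and in Ndufa2 it was the farthest.

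How many members passed depended on the fit, and where some did, their share was below that of all genes. 4sU and total RNA were parts of one labelled sample, and with the same-numbered 4sU and total libraries as a block 2 members passed, Uqcrq (limma-voom adjusted p = 0.047) and Uqcrc1 (0.0485), both lower, against 3.9% of all genes lower and 6.42% higher. Without ESC total replicate 3, 4 members were lower and 0 higher (5.04% and 8.96% of all genes). These were Uqcrq (-0.69, limma-voom adjusted p = 0.00722), Cox6b2 (-0.70, 0.0124), Uqcrc1 (-0.44, 0.0191) and Atp5g3 (-0.42, 0.0263). Without both ESC libraries numbered 3 the same 4 were lower and Ndufv3 was higher (0.61, limma-voom adjusted p = 0.0137), against 6.69% and 13.7% of all genes, 0 members were called, and the median was -0.08, against 0.13 over all genes. DESeq2 passed 4 members, all lower, against 5.94% of all genes lower and 3.13% higher, with 15 at an unadjusted p under 0.05 (21.1% of all genes). They were Uqcrc1 (-0.46), Uqcrq (-0.65), Cox4i1 (-0.37) and Atp5b (-0.27), with adjusted p-values of 0.0176 to 0.0399. edgeR passed 0, against 1.93% of all genes lower and 2.88% higher, with 9 at an unadjusted p under 0.05 (23%).

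Within one cell state the ratio of total to 4sU RNA ranks genes by relative stability. The members' median was 1.65 in ESC and 1.66 in EpiLC, against 0.03 and 0.15 over all genes and 0.30 and 0.37 over protein-coding genes. In ESC 69 of the 91 were called above 0 (23.7% of all genes) and 4 below (26.8%), and in EpiLC 69 above (24.2%) and 6 below (23.3%). Without both ESC libraries numbered 3 the medians were 1.67 in ESC and 1.65 in EpiLC, against 0.03 and 0.16 over all genes. The zero of this scale is set by the normalization. A scaling moves all genes of a library alike, so the distance between 2 medians hardly depends on it. The members' median lay 1.62 to 1.63 from that of all genes in ESC under this and the 3 other scalings tried, which is no separate evidence. Among protein-coding genes under 2000 bases the ESC median was 0.85 (n = 2708), and over the 75 members under that length it was 1.73; the part of length in the ratio was not tested. Subunits had a median of 1.79 and the assembly factors 0.70 in ESC. Complex II (2.13), complex III (2.08) and the complex I core (1.97) had the highest medians by role.

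The highest ratios in ESC belonged to Uqcrc1 (2.98 ± 0.09 SE), Cox4i1 (2.90) and Uqcr11 (2.83), at percentiles 99.5, 99.3 and 99.1 of all genes. Cox4i1 was at 540, 533 and 586 CPM in ESC total and 68.0, 75.3 and 79.9 CPM in ESC 4sU libraries. Uqcr11, the smallest complex III subunit, was at 114, 111 and 90.3 CPM against 15.2, 15.8 and 12.5 CPM. The lowest were Atp5l (-4.17), Atp5g2 (-3.37) and Cox7c (-3.19). Atp5l, the g subunit of ATP synthase, had 2 to 9 reads in the ESC total libraries and 27 to 39 in the smaller ESC 4sU libraries. Atp5g2 had 11 to 28 reads against 46 to 78, and Cox7c, a complex IV subunit, 120 to 310 against 447 to 848. The total and 4sU groups did not overlap in CPM for any of them, and EpiLC gave the same order (-3.74, -3.27 and -2.88).

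These lowest members share much of their transcript with other genes, and the authors kept only reads with a unique position. Of the 50-base stretches (the read length) of the main transcript, 87.4% occur in another annotated transcript for Atp5g2, 68.5% for Atp5l and 53% for Cox7c. The genes that hold them number 2, 13 and 3, of which 2, 12 and 3 are annotated as pseudogenes. The 30-base coding stretches below, one for each gene, lie within such shared stretches and show what could not be placed; positions count from the first base of the coding sequence, and the sequences are those of GENCODE transcripts.
Atp5l (225 to 254): gaatggtttggtggccactgaggtgtggat
Atp5g2 (11 to 40): gctccaagttcgtctctacccgctccctga
Cox7c (41 to 70): tccgtcgcagccactatgaggagggtccgg

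In all, 37 members shared at least one 50-base stretch and 19 more than 10% of them. Over these 19 the median ratio in ESC was 1.15, and over the 54 with none it was 1.78. The Spearman correlation of the shared percentage with the ratio was -0.269 across the 91 members. High sharing did not always go with a low ratio, since Atp5h (47.9%) was at 1.05 and Uqcrb (43.2%) at 1.47. The median mRNA change was -0.50 over the 19, of which 12 fell, and -0.46 over the 54, of which 40 fell, and the difference was not tested. What part lost reads have in the low ratios was not tested.

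**Figure D5:**
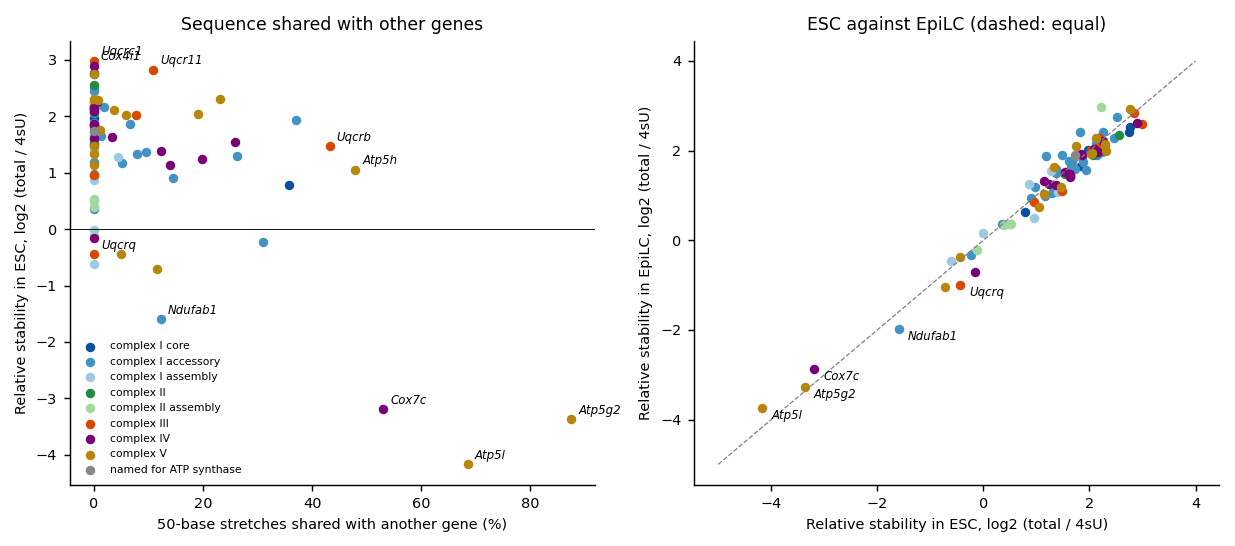
Left, relative stability in ESC (y axis, log2 of total over 4sU) against the percentage of 50-base stretches shared with another gene (x axis) for 91 members, coloured by complex; Atp5g2, Atp5l and Cox7c sit at the lower right, at -3.37, -4.17 and -3.19. Right, relative stability in EpiLC against ESC, with the dashed line of equal values; the Spearman correlation was 0.949 across the members.

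The rest of the pathway was read from lists of related genes, whose counts stand beside the 32.1% of all genes that fell and 31.4% that rose in total RNA, and the 28.8% and 23.7% in 4sU RNA. Of 8 further genes of the pathway (Cycs, Cyc1, Atpif1, Usmg5, Higd1a, Higd2a, Coq7 and Coq9), 4 fell in total RNA and 0 rose. Among those that fell was Cyc1, the cytochrome c1 of complex III (-0.36 ± 0.09). Cycs, cytochrome c itself, had a log2 change of 0.26 ± 0.14 and did not pass. Of 9 complex I assembly factors outside the prefixes, 4 fell (Foxred1 -0.53, Nubpl -0.47) and 2 rose (Dmac1 0.38, Timmdc1 0.27). Of 31 assembly factors of complexes III, IV and V, 29 passed the filter, 14 fell and 1 rose. Cox17, the copper chaperone of complex IV, was at 29.5 ± 2.67 CPM (SD, n = 3) in ESC total and 15.0 ± 1.97 CPM in EpiLC total libraries (-0.98 ± 0.14), and Bcs1l, which inserts the Rieske protein into complex III, was at -0.78 ± 0.14. Tmem70, a factor for ATP synthase, rose (0.49 ± 0.13). No gene of these lists was called in total RNA, and in 4sU RNA Coq9 of ubiquinone synthesis (-1.20), Bcs1l (-1.08) and Cox17 (-1.02) were called lower.

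The subunits encoded in mitochondrial DNA moved both ways in total RNA. Of 13 genes 7 passed the filter. The genes left out, mt-Nd3, mt-Nd4l, mt-Co2, mt-Co3, mt-Atp6 and mt-Atp8, had a mean of at most 0.0908 CPM in any group. In ESC 4sU RNA mt-Nd1 was at 22493 CPM. Whether reads of mitochondrial genes were lost in placing or counting was not tested, nor was the part of such a loss in the values below. In total RNA mt-Nd4 rose (0.48 ± 0.12), and mt-Nd6 (-0.93 ± 0.19) and mt-Co1 (-0.52 ± 0.10) fell. The other 4 that passed the filter did not pass the test. In 4sU RNA all 7 fell (median -0.41), and the stability change passed for 3 of them, all higher (2.72% of all genes): mt-Nd4 (0.83 ± 0.15), mt-Nd1 (0.69 ± 0.13) and mt-Cytb (0.67 ± 0.16). Their total to 4sU ratio in ESC was called below 0 for all 7, with a median of -5.53, opposite in sign to that of the nuclear members. The difference between nuclear and mitochondrial subunits was not tested.

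Of 13 enzymes of the tricarboxylic acid cycle, which feeds electrons to complexes I and II, 10 fell and 2 rose in total RNA, with a median of -0.36. Their total to 4sU ratio was high like that of the members. In ESC its median was 1.78 (members 1.65), and all 13 were called above 0 (23.7% of all genes). In EpiLC the median was 1.63 (members 1.66), and 10 were called above 0 (24.2%). Idh3b, a subunit of isocitrate dehydrogenase, fell (-0.74 ± 0.08), while Suclg2, the GTP-forming subunit of succinyl-CoA ligase, rose (0.78 ± 0.09). Cs, citrate synthase, fell in total RNA (-0.58 ± 0.07) with a nascent change of -0.00 ± 0.08, and its stability change was -0.58 ± 0.11 (limma-voom adjusted p = 0.0114; 1.88% of all genes were lower). Of 12 nuclear regulators of respiratory genes 11 passed the filter, 5 fell and 1 rose. Esrrb, an orphan receptor of naive pluripotency, was the only one called (-5.95 ± 0.24). Gabpa, the DNA-binding subunit of GABP, fell (-0.78 ± 0.07), as did Polrmt, the mitochondrial RNA polymerase (-0.57 ± 0.08), and Esrra (-0.35 ± 0.10). Yy1 rose at the edge of the threshold (0.19 ± 0.08), and Nrf1 had a log2 change of 0.21 ± 0.09 and did not pass (limma-voom adjusted p = 0.054).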

How the data were processed

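The authors deposited raw read counts per gene for 12 libraries (4 groups of 3): per the labels and methods, reads of 50 bases were trimmed with cutadapt 1.14, aligned to mm10 with STAR 2.5.3a keeping unique positions, and counted by strand with featureCounts 1.5.3 on GENCODE M14 without ribosomal RNA. Reads from sequence shared by several genes are lost by that step. Symbols and gene types came from GENCODE M21 (51274 of 51467 genes matched). A gene entered the fit if 3 or more libraries reached 3 CPM. Counts were scaled by TMM (edgeR 4.0.16) and fitted over all 12 libraries with voom (limma 3.58.1, R 4.3.3). Contrasts were EpiLC minus ESC in total RNA (mRNA change) and in 4sU RNA (nascent change), their difference (stability change), and total minus 4sU within each cell type (relative stability). P-values were adjusted by Benjamini-Hochberg over all 14731 genes, and a call needs an adjusted p under 0.05 and an absolute log2 change over 1. The fit was tested on simulated data. There it recovered 82.3% of the 2-fold differences set in mRNA, 62.8% in nascent RNA and 34.5% in stability. Of the genes the fit picked out there, 8.67%, 6.82% and 4.29% were false. edgeR's quasi-likelihood test and DESeq2 1.42.0 were alternatives, with other scalings, filters, blocks and left-out libraries.

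The members and lists were chosen with earlier results of these data known. Genes named were those called in the mRNA, nascent or stability change and those with the largest changes past the test and without overlap. Also named were the paralog sets of complexes IV and V, the 3 highest and 3 lowest in relative stability and the 5 highest in RPKM. Further members were named after their values were seen. The paper calls the replicates biological. Neither it nor the labels state that they were separate cultures, so p-values measure only the spread between these libraries.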

Additional observations from a re-analysis of the deposited data

Results flagged for a closer look

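Ndufb1-ps carries a member's prefix but is annotated as a bidirectional promoter lncRNA (ENSMUSG00000113902.1, mm10 chromosome 12, 101968090 to 101976254), so the rule left it out. It is named here because its row held signal that no count of members included. It was tested as one of all genes. It was at 67.6 ± 2.93 CPM (SD, n = 3) in ESC total, 79.0 ± 2.88 in EpiLC total, 11.7 ± 1.30 in ESC 4sU and 12 ± 0.590 in EpiLC 4sU libraries, from 38 to 1387 reads a library. The mRNA change was 0.22 ± 0.07 (limma-voom adjusted p = 0.0144), against a median of -0.50 over the members, and the nascent change 0.03 ± 0.16 (adjusted p = 0.885). The other 11 rows with such prefixes that are not protein-coding had at most 6 reads in a library.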

How the results depend on the processing

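No value changed sign past a test. Cox7a1, Ndufb4, Cox5a and Ndufaf5 in total RNA and Cox5a and Ndufv3 in 4sU RNA kept their calls under the alternatives run. Cox7a1 in 4sU RNA kept its call in the 21 fits that tested it, where Cox5a and Ndufv3 were tested in 22. Of the 7 members called lower in total RNA, 4 were left with library totals and 4 to 9 without single libraries (4 without ESC total replicate 1); by adjusted p alone there were 69, and 57 to 79 without single libraries. Of the 7 called lower in 4sU RNA, 4 were left with median-of-ratios scaling, TMM within each assay or no filter, 3 with the 6 libraries of the assay alone and 4 to 7 without single libraries (4 without EpiLC 4sU replicate 3); by adjusted p alone there were 53, with 28 without the filter and 40 to 57 without single libraries. The nascent median was -0.39 with median-of-ratios scaling, -0.38 with TMM within assay and with no filter, -0.40 with DESeq2, -0.36 with the assay's libraries alone, -0.50 without both ESC libraries numbered 3 and -0.49 to -0.40 without single libraries. The mRNA median was -0.52 to -0.46 without single libraries. The stability median was -0.20 with no filter and -0.15 to -0.01 without single libraries, and 0.01 with library totals. The ESC ratio median was 1.42 with library totals, 1.48 with TMM within assay, 1.86 with no filter and 1.53 to 1.68 without single libraries. The EpiLC ratio median was 1.51 with median-of-ratios scaling and with DESeq2, 1.49 with library totals, 1.43 with TMM within assay, 1.71 with no filter, 1.65 without both ESC libraries numbered 3 and 1.62 to 1.69 without single libraries. Scaling moved all genes alike: the ESC ratio median of all genes was 0.03, -0.20 with library totals and -0.14 with TMM within assay. Counts by adjusted p alone under the alternatives were added after seeing the data: 2 members rose in total RNA with library totals (Ndufaf6 and Ndufaf4), and 1, Ndufaf6, rose in 4sU RNA with edgeR, with DESeq2, with the block and without EpiLC 4sU replicate 3 (0 to 1 without single libraries). In the stability change by adjusted p alone, 0 members passed in the reported fit; 4 were lower with DESeq2, 4 without both ESC libraries numbered 3 (and 1 higher) and 0 to 4 without single libraries (4 without ESC total replicate 3). The causes were not tested. Deviations of same-numbered ESC and EpiLC libraries correlated at -0.0775 to -0.00903, which gives no sign that the numbers pair the cell types. The 4sU and total libraries of one number correlated at 0.163 to 0.408 in ESC and at 0.0235 to 0.0747 in EpiLC. A correlation near 0 does not exclude a pairing. With the replicate block for the number, 7 members were called lower in total and 7 in 4sU RNA (medians -0.49 and -0.45), and with a replicate block for same-numbered 4sU and total libraries 7 and 6; in the stability change that block passed 2 members, Uqcrq and Uqcrc1 (limma-voom adjusted p = 0.047 and 0.0485). The 4sU depth limits the nascent values of members with few reads, such as Sdhaf4 and Cox7a1.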
